A study of Mus musculus with 15 samples.

Results

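The urea cycle removes nitrogen from the body in the liver, and 10 genes of this pathway and of the glutamine metabolism that flanks it were examined in livers of young and old mice. The genes were taken by symbol from a list of names, and no threshold on measured values entered the choice. The list was chosen with earlier results of these data known. They were 7 genes of the urea cycle (Cps1, Otc, Ass1, Asl, Arg1, Nags and Slc25a15) and 3 genes of glutamine and glutamate metabolism (Glul, Gls2 and Glud1). All 10 were present among the 37991 gene identifiers of the count table, and all 10 were among the 14258 genes abundant enough to be tested. RNA was sequenced from whole liver of 15 female mice, in 3 groups of 5. Young WT and old WT mice were wild-type animals aged 90 and 600 days. Old KO mice were aged 600 days and carried a whole-body knockout of Rps6kb1, the gene of ribosomal S6 kinase 1 (S6K1). All 3 groups were C57BL/6 animals from crosses of heterozygous parents, kept on a chow diet. There was no young KO group, so genotype was compared at 600 days alone.

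Hepatocytes near the portal vein detoxify ammonia by making urea. Carbamoyl phosphate synthetase, encoded by Cps1, fixes ammonia inside the mitochondrion, and the cycle is completed by the enzymes of Otc, Ass1, Asl and Arg1. A narrow ring of hepatocytes around the central vein recovers what escapes, using glutamine synthetase, the product of Glul. In the periportal zone the liver glutaminase of Gls2 releases ammonia from glutamine. The glutamate dehydrogenase of Glud1 releases ammonia from glutamate. Whole liver mixes both zones and all other cell types, so fewer cells of a type and less RNA per cell cannot be told apart in any result given here.

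Total counts per library ranged from 21801754 to 38065359, and no library held fewer than 744 reads of any of the 10 genes, so that counting error was small beside the spread between animals. Expression is given as CPM, the reads of a gene per 1000000 reads of its library, after library sizes were scaled by TMM (trimmed mean of M-values). Rps6kb1 stood at 33.3 to 41.4 CPM in young WT livers, at 34.6 to 45.4 in old WT livers and at 15.2 to 20.8 in the knockout, so that every old KO library lay below every wild-type library. Its log2 fold change in old KO against old WT livers was -1.17 (SE 0.10, adjusted p = 8.54e-06 by edgeR). Rps6kb1 overlaps Rnft1 on the other strand, and how the counting handled strand was not stated. Rnft1 held 21205 reads over the 15 libraries against 13751 for Rps6kb1. Markers of hepatocytes summed to between 100600 and 163900 CPM in every library, 4 of 5 markers of pancreas acinar cells were at 0 in all 15 libraries, and markers of skeletal muscle reached 21.5 CPM in an old KO library.

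2 libraries stood apart in the urea cycle genes, and the results below are given with and without them. Young WT 6 had the lowest level of its group for 7 of the 10 genes (Cps1, Ass1, Asl, Arg1, Nags, Slc25a15 and Gls2) and the highest for Glul and Glud1. Old WT 7 showed the reverse, with the highest level of its group for 6 genes (Cps1, Ass1, Asl, Arg1, Slc25a15 and Gls2) and the lowest for Glul and Glud1. Over all genes tested, young WT 6 was the lowest of its group for 28.6% and the highest for 27.2%, and old WT 7 for 26.8% and 27.0%. In young WT 6 the difference in log2 CPM from the mean of the other 4 libraries was -1.93 for Asl, -1.71 for Ass1, -1.39 for Cps1, -1.11 for Arg1 and -1.07 for Gls2. In old WT 7 the same difference was 1.64 for Ass1, 1.53 for Cps1, 1.45 for Asl, 1.04 for Gls2 and 1.03 for Arg1. Otc differed from the other libraries by -0.01 in young WT 6 and -0.04 in old WT 7. These libraries were picked out by the levels of the very genes described here, so a result obtained without them is a description and not independent evidence. Young WT 6 also had the lowest total count (21801754) and the lowest sum of hepatocyte markers (100600 CPM), while the sum in old WT 7 (150500 CPM) was the highest of the wild-type livers. The rank correlation of a library's deviation with the GC content of genes was -0.33 in young WT 6 and -0.09 in old WT 7, against a range of -0.27 to 0.33 in the other libraries. Among genes called for age in a fit without the library in question, young WT 6 lay nearer the mean of its labelled age for 49.9% and old WT 7 for 62.4%, against 72.7% to 91.0% for the other 8 wild-type libraries. The labels were kept as given, and for Glul and Glud1 both libraries lay on the side of their labelled age. Sample identity and feeding state were not tested, and neither was the part of depth, cell makeup and GC content in this pattern.

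**Figure D1:**
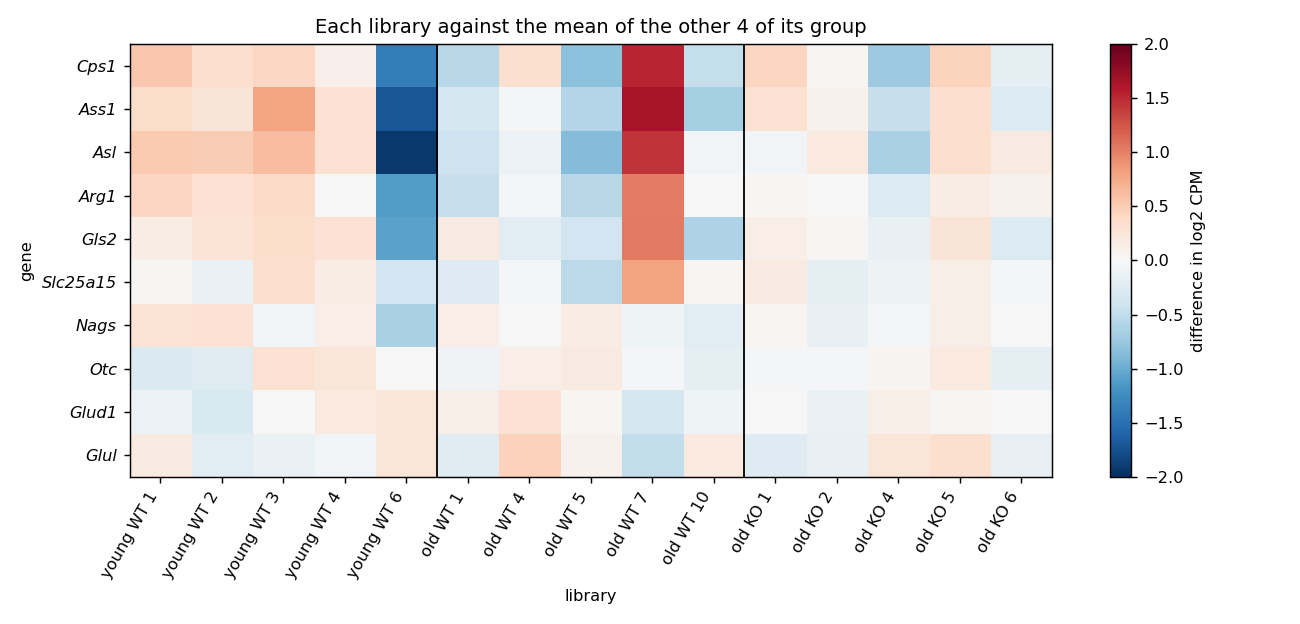
Difference in log2 CPM between each library and the mean of the other 4 libraries of its group, by gene (rows) and library (columns), with red above and blue below the others. Young WT 6 reaches -1.93 for Asl and old WT 7 reaches 1.64 for Ass1, whereas Otc differs by -0.01 and -0.04 in these libraries.

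The spread within groups divided the 10 genes. Pooled over the 3 groups, the standard deviation of log2 CPM was 0.67 for Asl, 0.65 for Ass1, 0.62 for Cps1, 0.42 for Arg1 and 0.42 for Gls2. It was 0.27 for Slc25a15, 0.23 for Glul, 0.20 for Nags, 0.16 for Otc and 0.16 for Glud1. Among the 4172 genes with a mean of at least 30 CPM the median was 0.15, and 98.0% of them varied less than Asl, against 51.7% that varied less than Glud1. After group means were removed, Cps1 correlated over the 15 libraries with Ass1 at r = 0.96, with Arg1 at 0.94, with Asl at 0.92, with Gls2 at 0.86 and with Slc25a15 at 0.84. With Otc the value was -0.01, with Glul -0.42 and with Glud1 -0.58. These values share libraries and depth, rest in part on young WT 6 and old WT 7, and are given as a description without a p-value. By the same measure before removal of group means, and among 12124 genes with a mean of at least 1 CPM, the genes most like Cps1 were Arg1 (r = 0.95), Asl (0.94) and Ctsl, the gene of the lysosomal protease cathepsin L (0.93). The genes most like Glul were Slc1a2 (0.87), a glutamate transporter, Nup50 (0.87), a component of the nuclear pore, and Spp2 (0.84), a secreted phosphoprotein.

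Levels of different genes were compared per kilobase of exon. In young WT livers Arg1 (1449 ± 416 CPM per kilobase, SD, n = 5), Cps1 (1411 ± 466) and Ass1 (1000 ± 391) led, within each other's spread. Glul (316 ± 35.4), Asl (257 ± 101) and Glud1 (241 ± 29.3) followed, again with overlapping spreads, then Slc25a15 (171 ± 25.8), Otc (99.3 ± 14.8) and Gls2 (97.1 ± 25.8). Nags (16.4 ± 3.17), which makes the N-acetylglutamate that carbamoyl phosphate synthetase needs, was the lowest in all 3 groups. Arg1 was the highest in all 3 groups. In old WT livers Glud1 took the 4th place and Asl fell to the 7th, and in old KO livers Glud1 was again 4th and Asl 6th. In old WT livers Slc25a15 (132.9 ± 40.3), Asl (124.5 ± 72.1) and Otc (116.5 ± 9.77) lay within each other's spread. The Asl mean there included old WT 7 at 250.3.

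**Figure D2:**
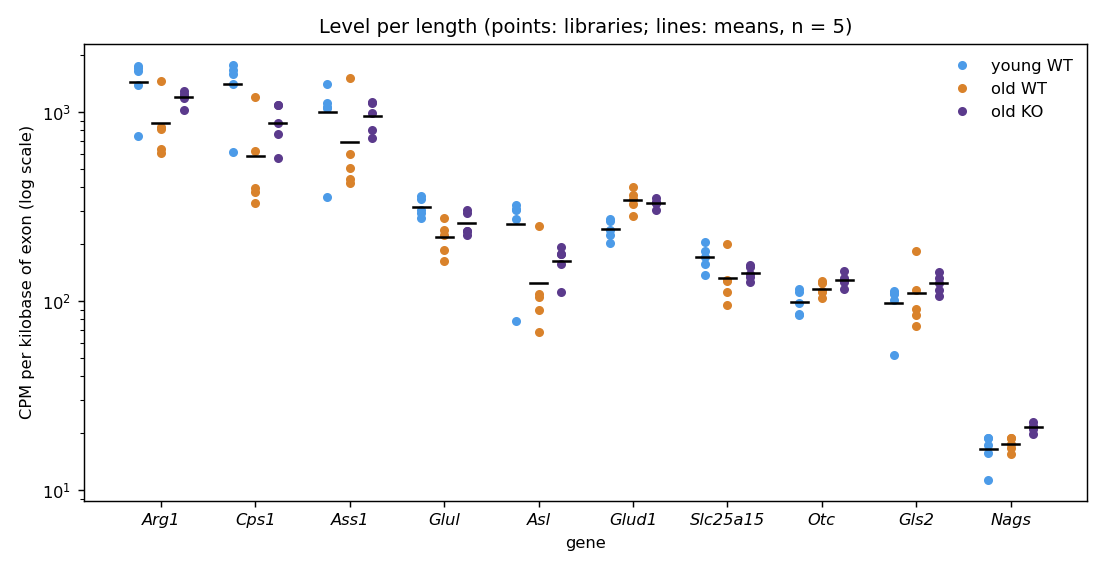
Level per length, as CPM per kilobase of exon on a log scale, of each gene in each library (points) with group means (lines, n = 5), ordered by the young WT mean. Arg1, Cps1 and Ass1 stand at the top with means of 1449, 1411 and 1000 in young WT livers, and Nags at the bottom with 16.4.

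Promoters of 6 of the 10 genes were found in a RefSeq table of build GRCm38.p6, each covering 250 bases before and 50 bases from the annotated start on, and 4 are printed because their genes behaved differently in these livers. Ass1 followed the shared swings of the urea cycle enzymes, Otc did not, Glul fell with age and Glud1 rose with age. Capitals mark matches, on either strand, to 8 short motifs. These were the cAMP response element (TGACGTCA, in 1.79% of the 32851 promoters of the table), the C/EBP motif (TTGCNNAA, 10.8%), an HNF4 motif (CAAAGTCCA, 0.475%), the TATA box (TATAAA, 13.6%), the TCF/LEF motif (CTTTGAT, 3.73%), the GC box (GGGCGG, 35.7%), the CCAAT box (CCAAT, 37.4%) and the glucocorticoid response element (0.00913%). The Ass1 window lies at chr2:31470020-31470319 on the plus strand, is 74.0% G or C and holds 1 GC box. The Otc window lies at chrX:10252055-10252354 on the plus strand, is 44.3% G or C and holds none of the 8 motifs. The Glul window lies at chr1:153899679-153899978 on the plus strand, is 64.3% G or C and holds 2 CCAAT boxes and 1 GC box. The Glud1 window lies at chr14:34310477-34310776 on the plus strand, is 81.0% G or C and holds 3 GC boxes. A match is a description of letters and not a binding site.
Ass1: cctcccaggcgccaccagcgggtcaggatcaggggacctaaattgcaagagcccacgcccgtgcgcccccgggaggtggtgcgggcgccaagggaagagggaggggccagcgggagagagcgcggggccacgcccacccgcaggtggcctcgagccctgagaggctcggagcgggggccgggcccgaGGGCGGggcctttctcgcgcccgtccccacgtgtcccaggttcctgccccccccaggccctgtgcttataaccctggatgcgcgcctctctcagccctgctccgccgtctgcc
Otc: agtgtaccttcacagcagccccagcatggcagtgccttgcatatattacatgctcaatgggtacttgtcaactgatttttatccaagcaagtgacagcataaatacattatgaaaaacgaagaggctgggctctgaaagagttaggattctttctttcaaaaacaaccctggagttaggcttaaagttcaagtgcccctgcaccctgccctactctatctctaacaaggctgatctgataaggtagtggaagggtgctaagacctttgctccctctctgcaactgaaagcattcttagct
Glul: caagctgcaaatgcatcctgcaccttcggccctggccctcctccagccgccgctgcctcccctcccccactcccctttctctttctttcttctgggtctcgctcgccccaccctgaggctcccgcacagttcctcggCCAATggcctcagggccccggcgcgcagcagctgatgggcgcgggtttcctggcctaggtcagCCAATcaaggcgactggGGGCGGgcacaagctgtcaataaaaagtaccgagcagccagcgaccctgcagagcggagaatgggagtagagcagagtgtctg
Glud1: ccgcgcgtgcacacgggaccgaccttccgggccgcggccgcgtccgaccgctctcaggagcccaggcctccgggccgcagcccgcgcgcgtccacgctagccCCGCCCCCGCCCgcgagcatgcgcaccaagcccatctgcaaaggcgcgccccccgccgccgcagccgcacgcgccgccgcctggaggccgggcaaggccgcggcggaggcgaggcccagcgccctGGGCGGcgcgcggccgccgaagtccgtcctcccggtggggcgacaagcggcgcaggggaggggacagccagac

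Age was examined by comparing old WT with young WT livers. 4 of the 10 genes passed the test, with Cps1, Arg1 and Glul lower and Glud1 higher in old livers. Of all genes tested 18.8% passed, 9.92% higher and 8.91% lower. The median log2 fold change was -0.44 over the 10 genes and 0.01 over all genes tested, and 7 of the 10 had an unadjusted p under 0.05, against 33.0% of all genes tested. Groups did not overlap for Glul and Glud1, against 11.4% of all genes tested. 7 of the 10 passed without old WT 7 (18.9% of all genes in that fit) and without both young WT 6 and old WT 7 (24.3%). Only 2 passed without old WT 1 (13.4%) and 2 without old WT 5 (13.5%). Young WT 6 and old WT 7 were chosen for these levels, so age values and separations without them are not independent evidence.

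Markers of other cell types also differed with age. The 6 markers of B and plasma cells summed to 3.11 to 6.23 CPM in young WT and 7.69 to 41.3 in old WT livers, all 6 with a log2 fold change above 0 and 3 past the test. The sums of the 8 T cell markers were 3.05 to 6.98 and 4.16 to 13.4 CPM, with 2 markers higher. For 12 macrophage markers they were 243 to 514 and 325 to 735 CPM, with 1 marker higher and 11 of 12 fold changes above 0. The 8 endothelial markers summed to 170 to 314 CPM in young WT and 131 to 230 in old WT livers, with 2 markers lower. Hepatocyte markers (10 genes, 1 higher and 1 lower) summed to 100600 to 149000 and 108300 to 150500 CPM, with a median log2 fold change of -0.08. No marker of these 5 lists was at 0 in all 15 libraries, and their part in the values of the 10 genes was not tested.

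Cps1 (chr1:67169600-67277833 of build NCBIM37, plus strand) carries the ammonia-fixing step. It stood at 9881, 8875, 9220, 7810 and 3409 CPM in young WT livers 1, 2, 3, 4 and 6. In old WT livers 1, 4, 5, 7 and 10 it stood at 2105, 3441, 1828, 6702 and 2204 CPM. 4 young livers lay above every old liver. Young WT 6 lay among the old livers, and old WT 7 lay below every young liver but young WT 6, so the groups overlapped. The mean was 7839 ± 2587 CPM (SD, n = 5) in young WT and 3256 ± 2023 in old WT livers, a log2 fold change of -1.27 (SE 0.35, adjusted p = 0.0197 by edgeR). Without old WT 1 or old WT 5 the adjusted p rose to 0.0523 and 0.0502. Without both young WT 6 and old WT 7 the log2 fold change was -1.89 (SE 0.22, adjusted p = 0.000102 by edgeR).

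Argininosuccinate synthase (Ass1, chr2:31325727-31376192, plus strand) and argininosuccinate lyase (Asl, chr5:130487128-130501002, minus strand) pass the second nitrogen into the cycle. Ass1 stood at 2577, 2418, 3264, 2458 and 815 CPM in young WT livers 1, 2, 3, 4 and 6, and at 1160, 1382, 1019, 3506 and 976 in old WT livers 1, 4, 5, 7 and 10. The highest value of all 10 livers was that of old WT 7 and the lowest that of young WT 6, and the other libraries of each group did not overlap. For Ass1 the log2 fold change was -0.52 (SE 0.36, adjusted p = 0.330 by edgeR). Asl stood at 1402, 1385, 1474, 1237 and 359 CPM in the young WT livers and at 408, 480, 315, 1142 and 496 in the old WT livers, in the same order. Young WT 6 lay among the old livers and old WT 7 lay below every young liver but young WT 6. The remaining libraries of each group did not overlap. For Asl it was -1.04 (SE 0.36, 95% interval -1.80 to -0.29), with an edgeR adjusted p of 0.0505 just outside the threshold. Without old WT 7 the log2 fold change was -1.02 for Ass1 (adjusted p = 0.0207) and -1.46 for Asl (0.00516), and without young WT 6 it was -1.27 for Asl (0.00601). Without both libraries it was -1.23 for Ass1 (edgeR adjusted p = 0.000253) and -1.69 for Asl (3.93e-05).

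Arginase (Arg1, chr10:24635014-24647276, minus strand) splits arginine into urea and ornithine. It stood at 2592, 2425, 2520, 2049 and 1105 CPM in young WT livers 1, 2, 3, 4 and 6, and at 947, 1203, 900, 2159 and 1223 in old WT livers 1, 4, 5, 7 and 10. Young WT 6 lay among the old livers, and old WT 7 lay among the young livers. The mean fell from 2138 ± 614 to 1286 ± 509 CPM (SD, n = 5), a log2 fold change of -0.73 (SE 0.24, adjusted p = 0.0411 by edgeR). This call was lost when any of 10 libraries was left out (young WT 1, 2, 3 or 4, old WT 1, 4, 5 or 10, old KO 2 or 5), with adjusted p from 0.0528 to 0.100. Without both young WT 6 and old WT 7 the log2 fold change was -1.16 (SE 0.12, adjusted p = 5.42e-05 by edgeR).

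The remaining genes of the cycle moved less. Ornithine transcarbamylase (Otc, chrX:9829431-9898150, plus strand) ranged from 357 to 494 CPM in young WT and from 442 to 543 in old WT livers, with a log2 fold change of 0.23 (SE 0.10, adjusted p = 0.131 by edgeR). It is the mitochondrial enzyme that follows carbamoyl phosphate synthetase, and its sign was opposite to that of Cps1. Nags (chr11:102006827-102010791, plus strand) ranged from 32.1 to 53.8 CPM in young WT and from 43.9 to 53.6 in old WT livers, with a log2 fold change of 0.09 (95% interval -0.15 to 0.33). Slc25a15 (chr8:23486026-23509093, minus strand), the mitochondrial carrier of ornithine and citrulline, stood at 593, 543, 709, 638 and 476 CPM in young WT livers 1, 2, 3, 4 and 6. In old WT livers 1, 4, 5, 7 and 10 it stood at 385, 439, 328, 692 and 449. All old WT libraries other than old WT 7 lay below every young library. For Slc25a15 the log2 fold change was -0.37 (SE 0.16, adjusted p = 0.125 by edgeR), and without old WT 7 it was -0.56 (adjusted p = 0.00643). Without both young WT 6 and old WT 7 it was -0.62 (edgeR adjusted p = 0.00177).

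**Figure D3:**
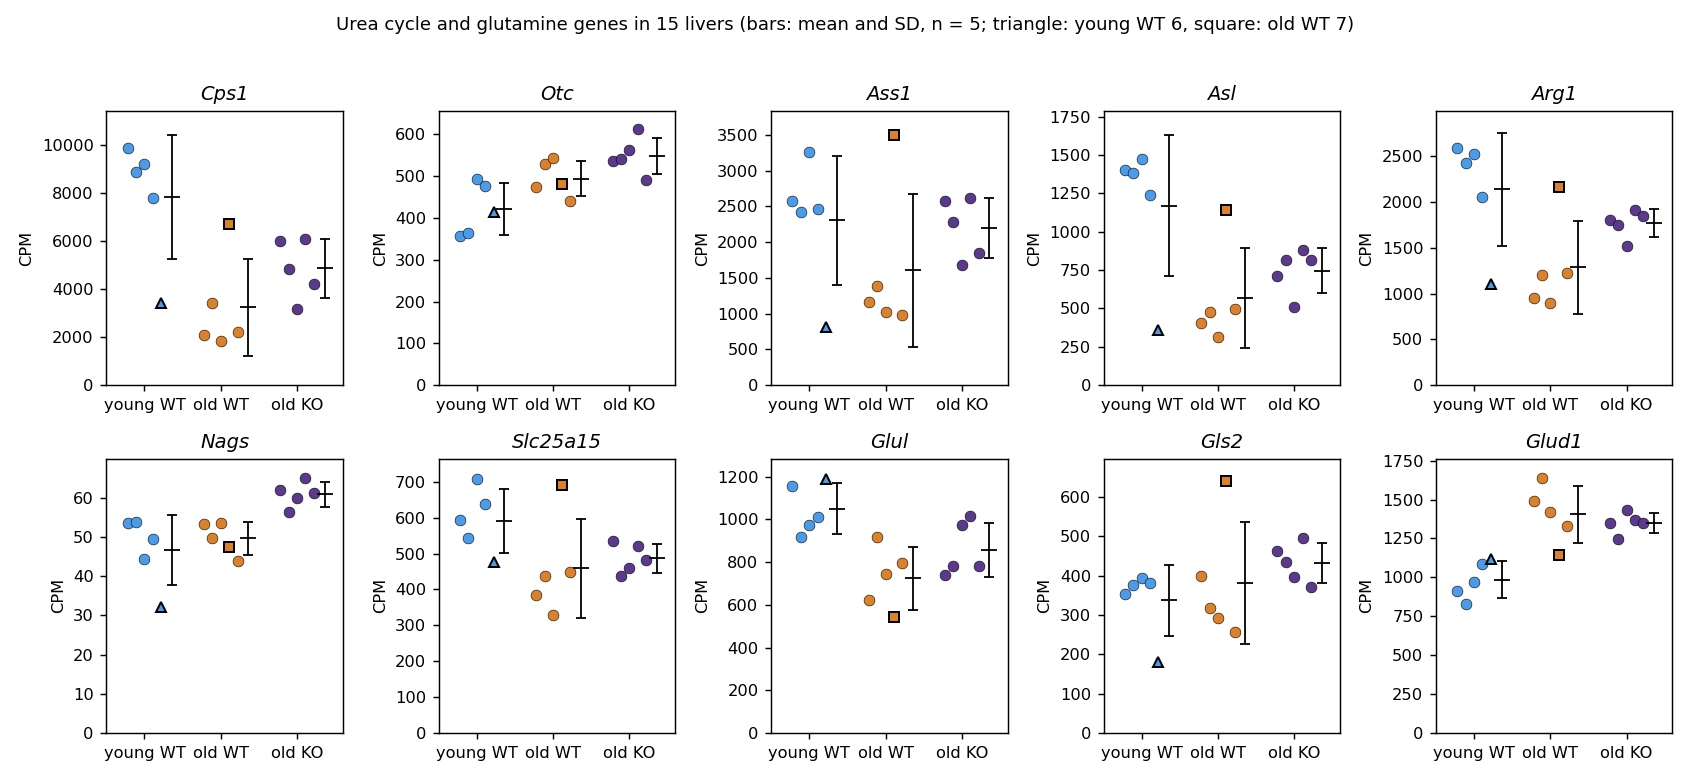
CPM of the 10 genes in each library, by group, with the mean and SD (n = 5) to the right of the points; a triangle marks young WT 6 and a square old WT 7. For Cps1 young WT 6 stands at 3409 CPM, among the old WT livers. Old WT 7 stands at 6702 CPM, below every young WT liver but young WT 6. Glud1 runs from 828 to 1117 CPM in young WT and from 1146 to 1638 in old WT livers.

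Glul (chr1:155747074-155756853, plus strand), the pericentral glutamine synthetase gene, stood at 1158, 919, 976, 1013 and 1191 CPM in young WT livers 1, 2, 3, 4 and 6. In old WT livers 1, 4, 5, 7 and 10 it stood at 623, 916, 746, 542 and 795 CPM. Every old liver lay below every young liver, although the highest of the old livers (916.0) came close to the lowest of the young (919.3). The mean fell from 1051 ± 118 to 724 ± 146 CPM (SD, n = 5), a log2 fold change of -0.54 (SE 0.14, adjusted p = 0.0149 by edgeR). It stayed past the threshold in all 15 fits without 1 library, with log2 fold changes from -0.63 to -0.44. Without young WT 6 and old WT 7, which lay at the far ends of the groups, it was -0.39 (edgeR adjusted p = 0.0464).

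Glud1 (chr14:35123913-35158330, plus strand), the glutamate dehydrogenase gene, was the 1 member that passed the test as higher with age. It stood at 915, 828, 973, 1086 and 1117 CPM in young WT livers 1, 2, 3, 4 and 6, and at 1488, 1638, 1419, 1146 and 1329 in old WT livers 1, 4, 5, 7 and 10. Every old liver lay above every young liver, with old WT 7 the lowest of the old and young WT 6 the highest of the young. The log2 fold change was 0.51 (SE 0.11, adjusted p = 0.00438 by edgeR), and it lay between 0.46 and 0.58 in the 15 fits without 1 library, past the threshold in each. Gls2 (chr10:127631513-127647060, plus strand) gave no call. It ranged from 179 to 395 CPM in young WT and from 256 to 641 in old WT livers, where the extremes 179 and 641 were again young WT 6 and old WT 7. Its log2 fold change was 0.17 (95% interval -0.32 to 0.67), and it was -0.25 without both libraries. The gene Spryd4, which overlaps Gls2 on the other strand, held 12758 reads over the 15 libraries against 164038 for Gls2.

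**Figure D4:**
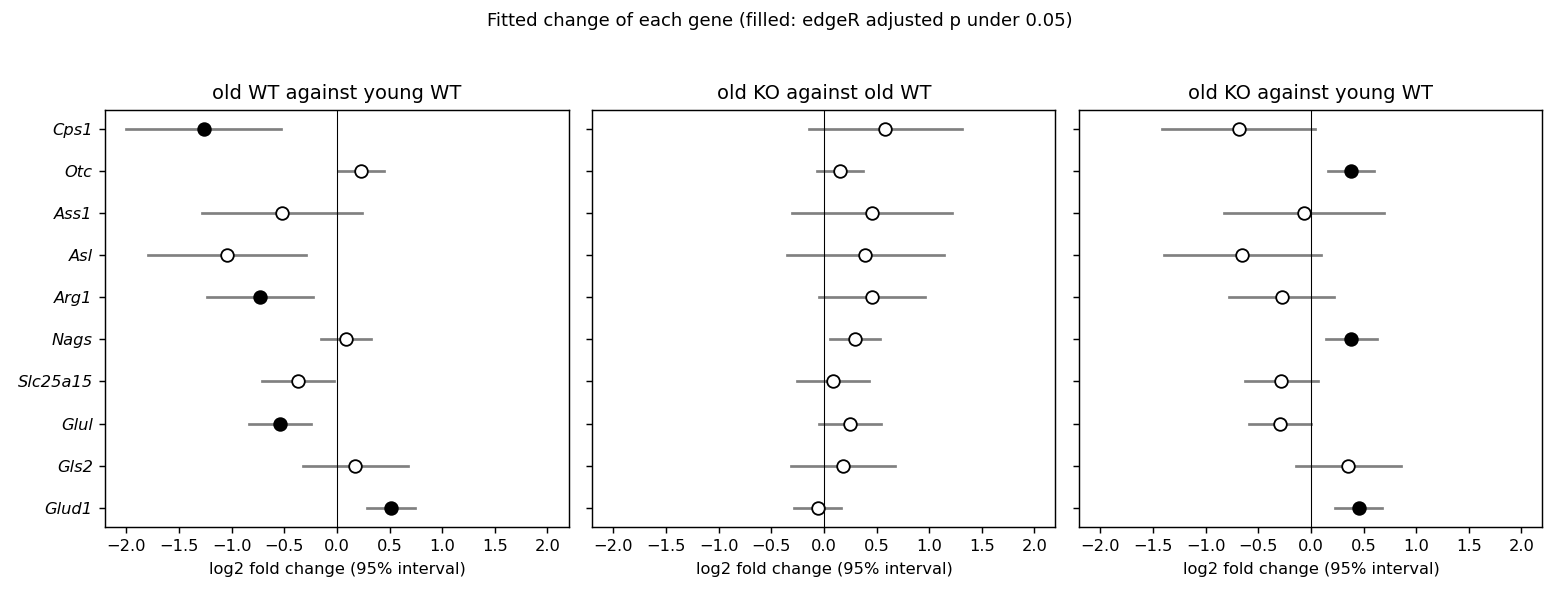
Fitted log2 fold change of each gene with its 95% interval in the 3 comparisons, with filled points for an edgeR adjusted p under 0.05. Filled points appear for Cps1, Arg1, Glul and Glud1 in old WT against young WT, for none in old KO against old WT, and for Otc, Nags and Glud1 in old KO against young WT.

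Loss of S6K1 was examined by comparing old KO with old WT livers, and none of the 10 genes passed the test. Of all genes tested 0.533% passed. 1 of the 10 genes had an unadjusted p under 0.05, against 11.6% of all genes tested. DESeq2 also called none of the 10, against 305 of all 14258 genes tested. The fitted log2 fold change was above 0 for 9 of the 10 genes, with a median of 0.27 against 0.000797 over all genes tested. The old WT libraries enter both this comparison and that of age, so an old WT library that stands apart shifts both, in opposite directions.

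Cps1 stood at 6028, 4861, 3170, 6081 and 4236 CPM in old KO livers 1, 2, 4, 5 and 6. All 5 lay below old WT 7 (6702), and 4 of the 5 lay above the other 4 old WT livers. The mean was 4875 ± 1235 CPM (SD, n = 5) against 3256 ± 2023 in old WT livers, a log2 fold change of 0.58 (95% interval -0.14 to 1.31, edgeR adjusted p = 0.539). Ass1 stood at 2577, 2281, 1677, 2617 and 1856 CPM in the old KO livers in the same order, all above the 4 old WT livers other than old WT 7. Its log2 fold change was 0.45 (95% interval -0.31 to 1.21). Asl stood at 714, 814, 510, 881 and 813 CPM and Arg1 at 1804, 1748, 1516, 1913 and 1848, and for both genes every old KO liver again lay above 4 old WT livers and below old WT 7. The log2 fold change was 0.39 for Asl (95% interval -0.35 to 1.14) and 0.46 for Arg1 (95% interval -0.04 to 0.96). With all old WT livers the groups overlapped for these 4 genes. Old WT 7 was set aside for its level of these same genes, and the share of all genes that separate in this way was not computed. The 4 genes moved together within groups, so they are not separate results.

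The genotype values of these 4 enzymes depended on old WT 7. Without it the log2 fold change was 1.02 for Cps1, 0.95 for Ass1, 0.81 for Asl and 0.72 for Arg1, and none passed the test (edgeR adjusted p = 0.140, 0.179, 0.2997 and 0.139), against 0.258% of all genes tested in that fit. With young WT 6 left out as well, which does not enter the contrast but does enter the estimate of the spread, these 4 genes passed (edgeR adjusted p = 0.0456, 0.0171, 0.0444 and 0.0166), against 0.656% of all genes tested in that fit. Left out alone, young WT 6 gave no call, against 0.590% of all genes tested. Because both libraries were chosen for these same levels, the 4 calls were not independent evidence of an effect of genotype.

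**Figure D5:**
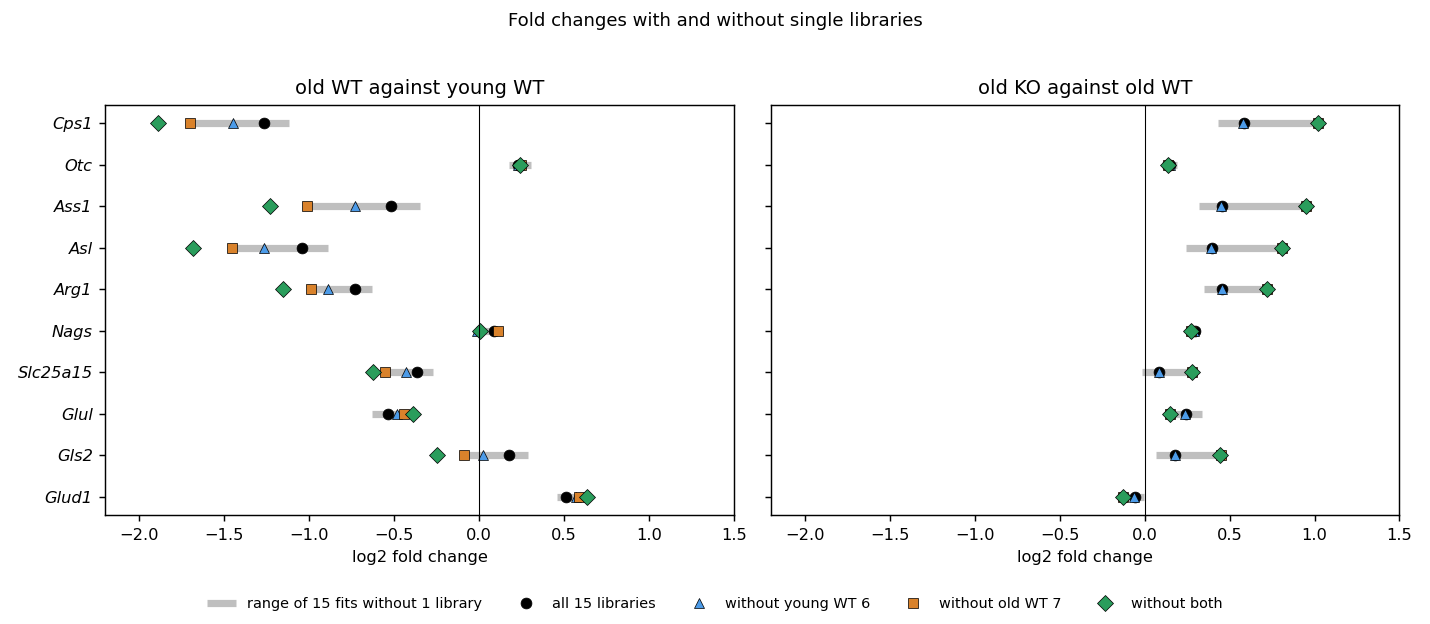
Log2 fold change of each gene with all 15 libraries (circles), without young WT 6 (triangles), without old WT 7 (squares) and without both (diamonds), and the range of the 15 fits without 1 library (grey bars), for age (left) and genotype (right). The value for Cps1 moves from -1.27 to -1.89 for age and from 0.58 to 1.02 for genotype, while those of Otc, Nags and Glud1 move by less.

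Among the other genes Nags came closest to a difference between genotypes. It stood at 53.4, 49.8, 53.6, 47.3 and 43.9 CPM in old WT livers 1, 4, 5, 7 and 10, and at 62.0, 56.3, 60.01, 65.0 and 61.3 in old KO livers 1, 2, 4, 5 and 6. Every old KO liver lay above every old WT liver, as was the case in either direction for 3.20% of all genes tested. The log2 fold change was 0.30 (95% interval 0.06 to 0.54), and the edgeR adjusted p was 0.302. The gene Gm11586, which overlaps Nags on the other strand, held 128 reads over the 15 libraries against 22412 for Nags. Otc ranged from 492 to 612 CPM in old KO livers (log2 fold change 0.15, 95% interval -0.07 to 0.37), and Slc25a15 from 437 to 536 CPM (0.09, 95% interval -0.26 to 0.43). Glul stood at 740, 781, 975, 1015 and 780 CPM in old KO livers 1, 2, 4, 5 and 6. 2 of these lay above every old WT liver, and the log2 fold change was 0.24 (95% interval -0.05 to 0.54). Gls2 ranged from 371 to 497 CPM (0.18, 95% interval -0.31 to 0.68). Glud1 ranged from 1247 to 1431 CPM in old KO livers, inside the range of old WT livers, with a log2 fold change of -0.06 (95% interval -0.28 to 0.17).

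Old KO against young WT livers, a comparison in which age and genotype differ together, gave 3 genes past the test, all higher in old KO livers. Of all genes tested 23.3% passed. Glud1 had a log2 fold change of 0.45 (SE 0.11, adjusted p = 0.00658 by edgeR), and each old KO liver lay above each young WT liver. Otc had a log2 fold change of 0.38 (SE 0.10, adjusted p = 0.0152 by edgeR), with 4 of 5 old KO livers above the highest young WT liver. Nags had a log2 fold change of 0.38 (SE 0.11, adjusted p = 0.0236 by edgeR) without overlap, as for 13.9% of all genes tested in either direction, and without old KO 5 the adjusted p was 0.0505. Glul, which fell with age in WT livers, had a log2 fold change of -0.29 here (95% interval -0.59 to 0.00, adjusted p = 0.137). For Cps1 it was -0.69 (95% interval -1.41 to 0.04), for Asl -0.65 (-1.40 to 0.10) and for Arg1 -0.28 (-0.78 to 0.22), with edgeR adjusted p of 0.161, 0.196 and 0.422. Without young WT 6 Asl passed at -0.88 (edgeR adjusted p = 0.0332). Without both young WT 6 and old WT 7, 7 of the 10 genes passed, against 28.4% of all genes tested in that fit, with Cps1 at -0.87, Asl at -0.88, Arg1 at -0.44 and Slc25a15 at -0.35 added to the 3.

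Other genes were described from 7 lists with 121 tested genes, chosen with earlier results of these data known. Beside genes of nitrogen metabolism, the lists held 12 other periportal genes, 14 other pericentral genes and 13 regulators of urea cycle genes. With age 36 of the 121 passed, against 18.8% of all genes tested, with 17 higher and 19 lower, with a median log2 fold change of -0.06. Of 14 other genes of the urea cycle and ammonia supply 4 passed, all lower. They were Oat, the pericentral ornithine aminotransferase, at -0.84 (SE 0.16, adjusted p = 0.00266 by edgeR), Slc25a12, an aspartate and glutamate carrier of mitochondria, at -0.53, Odc1, which makes polyamine from ornithine, at -0.42, and Gpt, an alanine aminotransferase, at -0.34. Oat stood at 1703 to 2417 CPM in young WT and 834 to 1389 in old WT livers without overlap, and it also lay at 878 to 1323 in old KO livers. Without old WT 1, 19 of the 121 passed (13.4% of all genes in that fit), and without old WT 5, 22 passed (13.5%). Of the 31 genes of these lists named for age, 17 passed in all 15 fits without 1 library. The other 14 were lost in at least 1 of those fits (Cebpa, Cyp2f2, Gpt, Haao, Hpd, Nr3c1, Ppargc1a, Pycr1, Slc16a10, Slc1a2, Slc1a4, Slc25a12, Slc43a1 and Slc7a5).

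Enzymes that use or make glutamine, glutamate and asparagine included 6 of 18 that were higher and 2 that were lower with age. Together these were 44.4% of the 18, against 18.8% of all genes tested. Gclc, which commits glutamate to glutathione, rose by 1.18 on the log2 scale (edgeR adjusted p = 0.00194), from 199 ± 78.0 to 450 ± 87.0 CPM (SD, n = 5). Nit2, an omega-amidase, rose by 0.66, Asrgl1, an asparaginase, by 0.42, and Pycr1, of proline synthesis, by 0.99 at a level of 0.178 CPM in young WT and 0.357 in old WT livers. Ctps, the glutamine-dependent CTP synthase, changed by -1.33 and Ppat, of purine synthesis, by -0.50. Among 17 amino acid transporters 2 were higher and 4 lower (35.3%). Slc3a1 rose by 2.06, with old WT 7 at 139 CPM and the other old WT livers at 20.4 to 50.4, and without old WT 7 the log2 fold change was 1.34 (edgeR adjusted p = 0.0108). Slc1a4 rose by 0.95. Slc43a1 changed by -1.38, Slc7a5 by -0.77, Slc1a2 by -0.59 and Slc16a10 by -0.54. Slc1a2, a glutamate transporter of pericentral hepatocytes, was at 227 ± 46.9 CPM in young WT and 151 ± 40.8 in old WT livers.

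Of 34 genes of amino acid breakdown 5 were higher and 6 lower with age (32.4%, against 18.8% of all genes tested). Of those that passed, the largest falls were of Aass, of lysine breakdown, at -1.06, Mat1a, the methionine adenosyltransferase of liver, at -1.02, Tdo2, of tryptophan breakdown, at -0.91, and Hpd, of tyrosine breakdown, at -0.51. The largest rises among them were of Ido2 at 1.01, Shmt1 at 0.40, Gcsh at 0.36 and Haao at 0.33. In this list young WT 6 had the lowest value of its group for 26 of 34 genes and old WT 7 the highest of its group for 20. Markers of zones did not move as a block. Of 12 other periportal genes 2 passed (16.7%), with Ctsc at 0.86 and Cyp2f2 at -0.75. Of 14 other pericentral genes 2 passed (14.3%), with Slc13a3 at 1.28 and Cyp27a1 at -0.58. Both shares lay below that of all genes tested, and the medians were 0.09 and -0.05. In old WT 7 the pericentral genes were the lowest of the group for 10 of 14. Among 13 regulators of urea cycle genes 3 passed (23.1%). Cebpa (0.33) and Nr3c1, the glucocorticoid receptor (0.32), rose and Ppargc1a was lower (-0.98).

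In old KO against old WT livers none of the 121 genes passed the edgeR test, and 18 had an unadjusted p under 0.05 (11.6% of all genes tested did). DESeq2 called 3 of the 121, against 305 of all 14258 genes tested. The median log2 fold change was 0.08. It was 0.14 over the 34 genes of amino acid breakdown, of which 31 lay above 0, and -0.14 over the 12 other periportal genes. The summed markers of macrophages ran from 325 to 735 CPM among old WT and from 187 to 290 CPM among old KO livers, with 7 of 12 lower in old KO livers and all 12 detected, and 9 of 10 hepatocyte markers had a fold change above 0, with a median of 0.22. The part of this difference in cell markers in the values of the 10 genes was not tested. In old KO against young WT livers 37 of the 121 passed, against 23.3% of all genes tested, with 24 higher and 13 lower. Among them were Oat at -0.84, Gclc at 0.99, Car5a, the mitochondrial carbonic anhydrase that supplies bicarbonate to carbamoyl phosphate synthetase, at 0.63, and Slc7a2, an arginine transporter, at -0.82, a call kept in 5 of 15 fits without 1 library.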

How the data were processed

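Livers were flash frozen, and polyadenylated RNA of 15 animals was prepared as stranded libraries and sequenced as single-end reads. Per the study's methods and processing notes, the authors mapped reads with TopHat2 2.0.11 to mm9 and counted them with HTSeq, and the deposited values are raw counts per gene, without scaling or pooling. The annotation and strand setting of the counting were not given in the sources used here, so overlapping genes are uncertain. Groups and replicate numbers came from the sample titles. All 30 pairs of libraries inside a group differed by more than counting noise (chi-square per degree of freedom 18.2 to 117.6).

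Counts of all genes were filtered with filterByExpr, scaled by TMM and fitted with edgeR 4.0.16 (R 4.3.3) in a quasi-likelihood model of 3 groups (common biological coefficient of variation 0.189), and p-values were adjusted by Benjamini-Hochberg over 14258 genes with a threshold of 0.05. DESeq2, named by the study, was an alternative here (1.42.0), beside limma 3.58.1 (voom), other scalings and filters, the 10 libraries of a contrast alone, a replicate block and leaving out each library. Intervals are 95% intervals of the fit. Log2 CPM used a prior count of 2. Positions came from an annotation of NCBIM37, the same build as mm9, and promoters from RefSeq. Scripts were tested on simulated data.

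The 10 genes, the lists and the rule for named genes were chosen with earlier results of these data known. The rule named the 10 genes, Rps6kb1, up to 4 called genes in each direction of each list by size of change, and the 3 genes most like Cps1 and Glul in pattern. Of 207 listed symbols 204 matched by symbol and 3 by a RefSeq synonym. No column of the table was left unused.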

Additional observations from a re-analysis of the deposited data

Results flagged for a closer look

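Dixon's test was applied to the highest and the lowest library in each of 30 groups of 5 values (10 genes in 3 groups). It compares each with the nearest of the others, and chance alone passes it in about 1 of 20 groups. 6 values passed. In young WT livers, young WT 6 lay far below the other 4 libraries for Cps1 (3409 CPM), Ass1 (814.8 CPM), Asl (359 CPM), Arg1 (1105 CPM) and Gls2 (179.1 CPM). In old WT livers, old WT 7 lay far above the other 4 libraries for Ass1 (3506 CPM). The 6 values came from 2 libraries already picked out by these same levels. The genes concerned moved together within groups, so the 6 values are not separate results. No old KO library was singled out, and none was for Otc, Nags, Slc25a15, Glul or Glud1.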

How the results depend on the processing

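Age called 4 of the 10 genes, and 2 to 7 without 1 library. It called 5 with DESeq2 (3249 of 14258 genes tested), without a filter (2200 of 24668) and with GC offsets (2861 of 14231). It called 3 with the 10 libraries of the contrast alone (2202 of 14121) and with the replicate block (899 of 14258). Without young WT 6 and old WT 7 together the count was 7 for age, 4 for genotype (0 with all libraries, and 0 without 1 library) and 7 for old KO against young WT (3 with all libraries). That setting and offsets for GC content and length were added after the data were seen. For age, all genes called numbered 2685, with 1748 to 3284 without 1 library. The genes of the 7 lists called numbered 36, with 19 to 46. For genotype, all genes called numbered 76, with 9 to 108 without 1 library, 121 with library totals alone, 305 with DESeq2 and 23 with limma voom. The genes of the 7 lists called for genotype numbered 0, with 0 to 1 without 1 library. They numbered 1 with library totals, 3 with DESeq2, 3 without both libraries and 1 with GC offsets.

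Deviations of samples with the same replicate number correlated at -0.15 to 0.08. Samples with different numbers were not compared, so whether the numbers pair the samples was not settled. With the replicate block, age called 899 genes, 20 genes of the 7 lists and 3 of the 10 genes, and genotype called 6 genes. Arg1 and Glul for age (edgeR adjusted p = 0.0520 and 0.0631) and Nags for old KO against young WT (0.0770) lost the call.

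Signs that turned belonged to values that passed no test. For age these were Nags with GC offsets (-0.017) and without young WT 6 (-0.012 to 0.14 over the fits without 1 library), and Gls2 with the replicate block (-0.037), without both libraries (-0.25) and without old WT 7 (-0.088 to 0.29). For genotype they were Slc25a15 without old WT 5 (-0.013 to 0.28) and Glud1 with GC offsets (0.031). For old KO against young WT it was Ass1 with limma voom (0.059), with the replicate block (0.18) and without young WT 3 or old KO 4 (-0.28 to 0.096). In each case the cause was not tested. Cps1 for age passed in all 11 alternatives other than leaving out 1 library, as did Glud1 for age and Glud1 and Otc for old KO against young WT. The genotype comparison had 5 animals a group. Its 95% interval on the log2 scale was -0.14 to 1.31 for Cps1 and -0.28 to 0.17 for Glud1, so neither sign was settled.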

Other observations

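A pair of genes outside the 10 was picked after their values were seen. Got1, the cytosolic aspartate aminotransferase that supplies aspartate to argininosuccinate synthase, stood at 565, 601, 1039, 831 and 224 CPM in young WT livers 1, 2, 3, 4 and 6, and at 154, 231, 118, 710 and 221 in old WT livers 1, 4, 5, 7 and 10. Young WT 6 was the lowest of its group and old WT 7 the highest of its group, as for Ass1 and Asl. The log2 fold change of Got1 with age was -1.19 (SE 0.44, edgeR adjusted p = 0.0677). In old KO livers Got1 ran from 230 to 415 CPM. Asns, the asparagine synthetase that turns aspartate and glutamine into asparagine, stood at 3.01 CPM in old WT 7 and at 0.0312 to 0.239 CPM in the other old WT livers, and it ran from 0.0428 to 0.325 CPM in old KO livers.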
